A study of Mus musculus with 8 samples.

Results

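The genes described here are Pparg, the fatty acid transporter gene Cd36 and 8 genes of fat storage in lipid droplets (Mogat1, Cidea, Cideb, Cidec, Plin2, Plin4, Plin5 and Fabp4), measured in whole liver. They make up 10 of 18193 genes that the annotation names alone on a probe set, and every probe set annotated to 1 of them was taken, 16 of 45037 in all; no probe set shared with another gene symbol named any of them. The genes were chosen with their difference between the groups already known, so that difference is given as a description with no test. Liver RNA came from 5 POMCMfn2KO mice and 3 control mice, 1 GeneChip array per mouse, all aged 6 weeks, of mixed C57Bl/6J, FVB/N and 129 background and kept on standard chow with free access to water. In POMCMfn2KO mice the mitochondrial fusion gene Mfn2 is deleted from cells that express Pomc, which in the hypothalamus are the melanocortin neurons, while the liver gene itself is not the target. The labels give the control genotype as WT, name the arrays of a group as biological replicates, and do not give sex, collection time or whether the controls carry a Cre or a floxed allele. The title of the series concerns hepatic gluconeogenesis under reduced α-MSH.

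PPARγ is a nuclear receptor that binds DNA together with a retinoid X receptor and drives fat storage; it is best known from adipocytes, and in mouse liver its level is raised in fatty liver, where CD36, MOGAT1, FABP4, CIDEA, CIDEC and PLIN4 are known as products of its target genes. Fatty acids enter the cell through CD36 among other carriers, are esterified to triglyceride and are kept in droplets coated by perilipins. Proteins of the CIDE family act at droplet contacts, where CIDEA and CIDEC promote fusion into larger droplets, and CIDEB serves the lipidation of lipoproteins in hepatocytes.

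Values are log2 levels as deposited, so a difference of 1 is a 2-fold change, and means are given ± SD with n = 5 POMCMfn2KO and n = 3 control arrays. Array medians lay between 5.79 and 5.81. Arrays carry no read depth, so their number limits the precision. As a guide to background, 80 probe sets for olfactory and vomeronasal receptors, which liver is not known to use, had a median level of 4.48 and a 95th percentile of 6.16 on these arrays; genes under 5.80 on average were not tested. Of the 16 probe sets, 15 reached 5.80 on their mean over the 8 arrays. Mogat1 and Cidea passed only through the controls. Levels of different probe sets are not compared with each other, since each binds with its own strength. Whole liver holds several cell types, and fewer cells of a type cannot be told apart from less RNA per cell.

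In POMCMfn2KO liver Pparg, Cd36, Mogat1, Cidea and Plin4 lay below every control array, and Fabp4 lay above on its 2 brighter probe sets. Cideb, Plin2 and Plin5 differed by at most 0.17 on the log2 scale. Cidec lay above every control in POMCMfn2KO array 1 and below every control in the other knockout arrays (difference of means -0.85). Counted by probe set, 7 of 16 were lower with no overlap of the groups, where 8.78% of all 45037 probe sets were, and 2 were higher with no overlap, where 8.47% of all were. The 7 lower probe sets were also at least 2-fold lower, which was true of 0.491% of all probe sets. Because the genes were picked from this same difference, nothing follows from these shares.

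**Figure D1:**
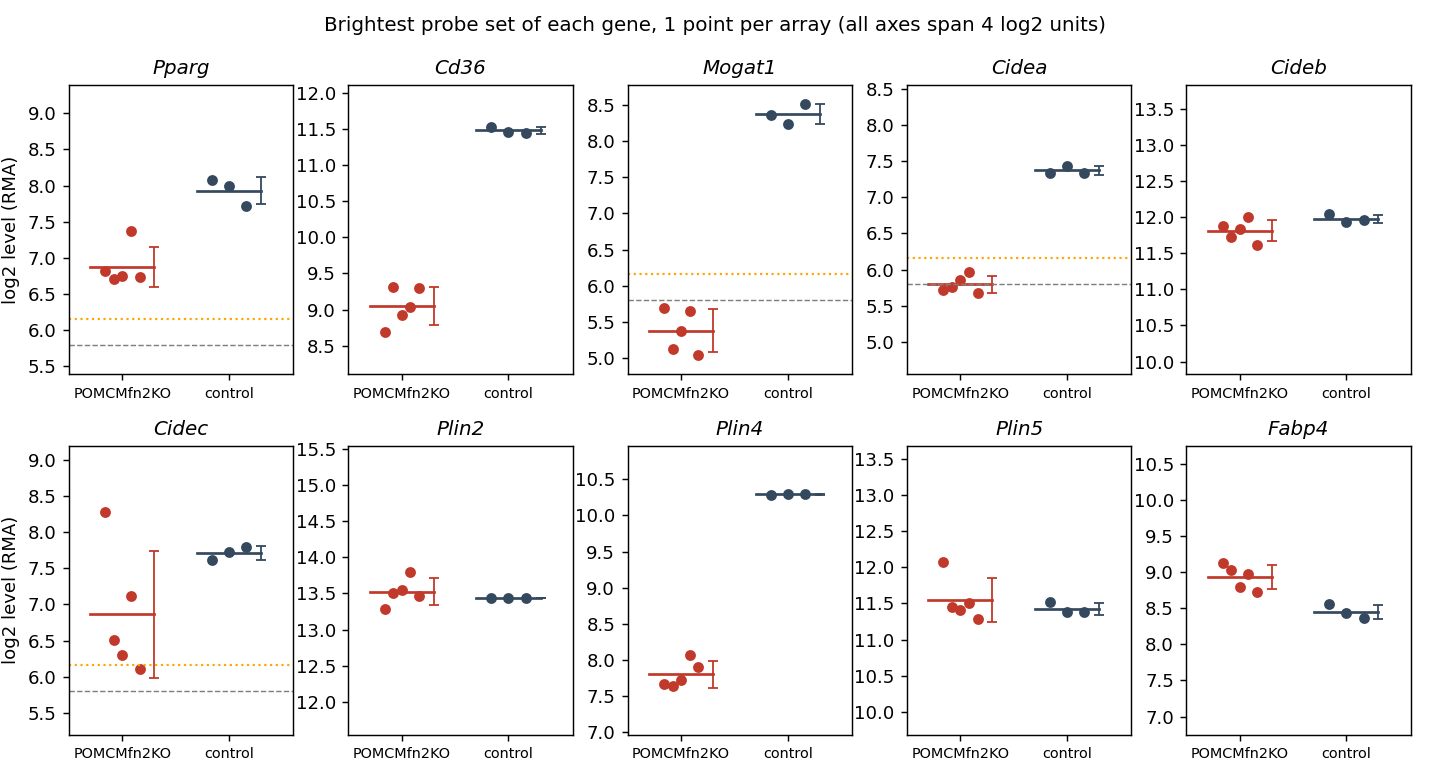
Log2 level of the brightest probe set of each gene in 5 POMCMfn2KO arrays (red, left) and 3 control arrays (dark, right), 1 point per array, with the mean (line) and SD (bar); each axis spans 4 log2 units. The dotted line is the 95th percentile of receptor probe sets taken as background (6.16) and the dashed line the level below which genes were left out of the tests (5.80), drawn where they fall inside the axis. The POMCMfn2KO arrays of Mogat1 and Cidea lie under the dotted line.

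Pparg (probe set 1420715_a_at), the gene of the receptor, lies at chr6:115360879-115490404 (RefSeq, build GRCm38.p6) and has several starts that give the PPARγ1 and PPARγ2 forms. This probe set is of a type that covers several transcripts of a gene, so the forms were not separated. Its level was 6.82, 6.71, 6.75, 7.37 and 6.74 in POMCMfn2KO arrays 1 to 5, against 8.07, 7.99 and 7.71 in control arrays 1 to 3. POMCMfn2KO array 4 stood above the other knockout arrays, between them and the controls, and the groups did not overlap. The means were 6.88 ± 0.28 in POMCMfn2KO and 7.93 ± 0.19 in control liver, a difference of -1.05 or 2.07-fold. All 5 knockout values lay above the receptor background of 6.16.

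Cd36, the scavenger receptor that takes up long-chain fatty acids, lies at chr5:17781690-17888959. On its brightest probe set (1423166_at) the level was 8.69, 9.32, 8.92, 9.03 and 9.30 in POMCMfn2KO arrays 1 to 5, against 11.53, 11.46 and 11.45 in the controls. The groups were 2.13 apart at their nearest arrays, and every knockout array was well above background. The means of 9.05 ± 0.26 in POMCMfn2KO and 11.48 ± 0.04 in control liver differed by -2.43, or 5.38-fold. The other Cd36 probe sets gave -2.29 (1450883_a_at) and -2.70 (1450884_at), so all 3 placed the difference between 4.89-fold and 6.49-fold. On 1450884_at the knockout arrays ranged from 6.29 to 6.89, just above the receptor background, so the size on that probe set is the least certain.

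Fabp4, a carrier of fatty acids inside adipocytes, macrophages and capillary endothelium, was the member with higher levels. It lies at chr3:10204342-10208616. Its brightest probe set (1417023_a_at) read 9.13, 9.03, 8.79, 8.98 and 8.73 in POMCMfn2KO arrays and 8.56, 8.43 and 8.37 in control arrays. The groups did not overlap but were only 0.17 apart at their nearest arrays, with means of 8.93 ± 0.17 in POMCMfn2KO and 8.45 ± 0.10 in control liver (difference 0.48, 1.39-fold). The probe set 1451263_a_at gave 0.38 with no overlap. The remaining probe sets, 1425809_at (0.18) and 1424155_at (0.17), overlapped; on the dimmer, 1424155_at, every array of both groups lay below 5.80. On 1425809_at, 3 POMCMfn2KO arrays and 3 control arrays lay below the receptor background of 6.16. With the mean of the 4 probe sets, these dim ones included, the difference was 0.30.

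Fabp4 is thus opposite in sign to Pparg, of which it is a known target in adipocytes and macrophages. Of 9 endothelial markers tested, Stab2 (0.55), Fcgr2b (0.41), Cldn5 (0.37) and Eng (0.24) rose and none fell. Over all tested genes 7.02% rose and 10.9% fell. With no adjustment, limma put 5 endothelial risers and 0 fallers below 0.05. The groups overlapped for Fcgr2b, whose other probe sets gave 0.11 to 0.21, and another probe set of Eng gave -0.09. The mean log2 level of these 9 markers ranged from 8.62 to 8.997 in POMCMfn2KO and from 8.49 to 8.72 in control arrays. In POMCMfn2KO arrays 1 to 5 that mean was 8.95, 8.86, 8.85, 8.62 and 8.997. Of 9 macrophage markers tested, Timd4 (-0.69) fell and none rose (with no adjustment, limma put 0 risers and 5 fallers below 0.05), and the mean level of the list ranged from 8.71 to 9.45 in POMCMfn2KO and from 9.23 to 9.56 in control arrays. Of 8 adipocyte markers, Adipoq, Lep and Adig were dim, Retn and Lipe overlapped between the groups, and Car3, which liver also expresses, had a difference of -1.31 on its brightest probe set (limma adjusted p = 0.0533) and of -2.76 to -2.28 on 3 others. Adipoq, dim on average, read 6.46 in POMCMfn2KO array 4, above the receptor background of 6.16, and 4.85 to 5.44 in all other arrays. Cfd and Plin1 were not analysed here. The part of other cell types in the level of Fabp4 was not tested.

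Mogat1, a monoacylglycerol acyltransferase that makes diacylglycerol, lies at chr1:78511060-78606964. Its probe set (1419504_at) read 5.69, 5.13, 5.37, 5.65 and 5.04 in POMCMfn2KO arrays and 8.36, 8.24 and 8.52 in control arrays. All 5 knockout arrays were below both 5.80 and the receptor background, and no control array was. The means were 5.37 ± 0.30 in POMCMfn2KO and 8.37 ± 0.14 in control liver, and set against the background level of 6.16 the transcript was at least 4.64-fold lower.

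Plin4, a perilipin otherwise known from adipocytes and muscle, lies on chromosome 17 at chr17:56100587-56109948. Its level (1418595_at) was 7.66, 7.64, 7.73, 8.07 and 7.90 in POMCMfn2KO arrays against 10.29 in each of the 3 control arrays. The knockout arrays stayed above background and 2.22 below the nearest control. The means, 7.80 ± 0.18 in POMCMfn2KO and 10.29 ± 0.00 in control liver, differed by -2.49, or 5.62-fold.

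Plin5 and Plin2 overlapped between the groups. Plin5, which ties droplets to mitochondria, is the next annotated gene on the chromosome, at chr17:56111597-56117606, with 1648 bases between it and Plin4. On its brightest probe set (1441915_s_at) Plin5 read 12.08, 11.45, 11.41, 11.51 and 11.29 in POMCMfn2KO arrays and 11.53, 11.38 and 11.38 in control arrays. Knockout array 1 was above all controls and the other 4 were among or slightly below them; the difference of means was 0.12. The other probe set, 1424937_at, gave 0.15 with the same array on top at 11.62. Without POMCMfn2KO array 1 the differences were -0.02 and -0.04. A probe set ending in _s_at can also bind transcripts of other genes.

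Plin2, the perilipin found on droplets of most cells and a common gauge of stored fat, lies at chr4:86626910-86670217. It read 13.29, 13.51, 13.55, 13.80 and 13.47 in POMCMfn2KO arrays and 13.44 in each control array (1448318_at). The groups overlapped and the means, 13.52 ± 0.18 in POMCMfn2KO and 13.44 ± 0.00 in control liver, differed by 0.08.

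The 3 CIDE genes differed from one another. Cidea (1417956_at), on chromosome 18, read 5.72, 5.76, 5.86, 5.97 and 5.67 in POMCMfn2KO arrays and 7.33, 7.44 and 7.34 in control arrays. All knockout arrays lay below the receptor background, so with means of 5.79 ± 0.12 in POMCMfn2KO and 7.37 ± 0.06 in control liver the transcript was at least 2.31-fold lower. Cideb (1418976_s_at), at chr14:55754052-55758424, read 11.88, 11.72, 11.83, 12.00 and 11.62 in POMCMfn2KO arrays and 12.04, 11.93 and 11.96 in control arrays. Its groups overlapped and its means differed by -0.17.

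Cidec, at chr6:113424634-113435760, had the widest spread of the 10 genes. Its level (1452260_at) was 8.28, 6.51, 6.29, 7.11 and 6.11 in POMCMfn2KO arrays 1 to 5 and 7.61, 7.73 and 7.80 in control arrays 1 to 3. Knockout array 1 was above every control, the other 4 were below every control, and array 5 lay just under the receptor background. The means were 6.86 ± 0.88 in POMCMfn2KO and 7.71 ± 0.10 in control liver, a difference of -0.85 that became -1.21 without array 1.

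**Figure D2:**
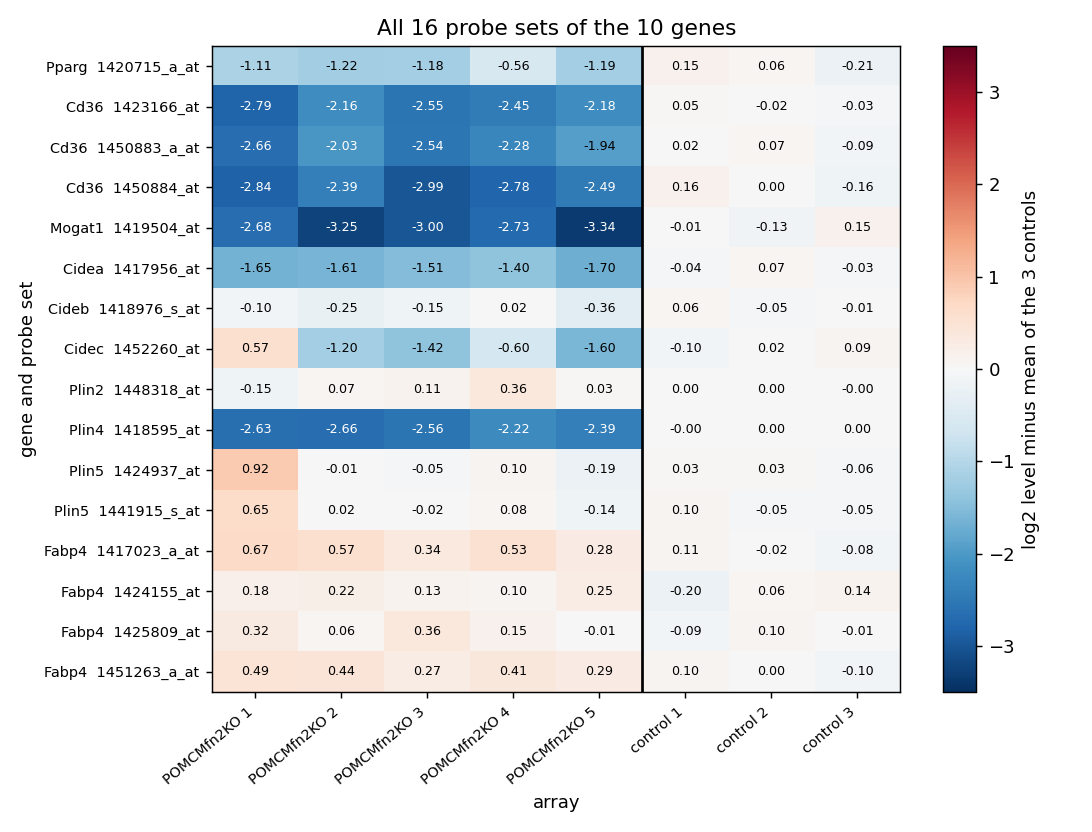
Log2 level minus the mean of the 3 controls for all 16 probe sets (rows, ordered by gene) in the 5 POMCMfn2KO arrays (left of the line) and the 3 control arrays (right); blue is lower and red is higher, and each cell prints its value. Pparg, all 3 Cd36 probe sets, Mogat1, Cidea and Plin4 are below the controls in every knockout array (for Mogat1 and Cidea from levels under background, so that their sizes are lower bounds), while Cidec and both Plin5 probe sets are above them in POMCMfn2KO array 1.

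The promoter windows of the 3 genes with the largest differences, Cd36, Mogat1 and Plin4, are shown beside that of Plin2, the perilipin gene with the smallest. Each runs from 250 bases before to 50 after an annotated start (RefSeq, build GRCm38.p6) and is written 5′ to 3′ on the gene's strand; capitals mark AGGTCA, the core element of nuclear receptor sites, and CCAAT, on either strand. The windows are chr5:17835847-17836146 on the minus strand for Cd36, chr1:78510810-78511109 on the plus strand for Mogat1, chr17:56109733-56110032 on the minus strand for Plin4 and chr4:86670010-86670309 on the minus strand for Plin2.
Cd36: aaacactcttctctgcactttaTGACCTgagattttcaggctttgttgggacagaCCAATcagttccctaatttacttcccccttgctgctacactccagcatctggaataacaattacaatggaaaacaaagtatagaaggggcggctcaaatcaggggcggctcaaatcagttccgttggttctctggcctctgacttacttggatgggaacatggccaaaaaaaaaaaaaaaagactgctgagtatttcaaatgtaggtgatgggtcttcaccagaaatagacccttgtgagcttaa
Mogat1: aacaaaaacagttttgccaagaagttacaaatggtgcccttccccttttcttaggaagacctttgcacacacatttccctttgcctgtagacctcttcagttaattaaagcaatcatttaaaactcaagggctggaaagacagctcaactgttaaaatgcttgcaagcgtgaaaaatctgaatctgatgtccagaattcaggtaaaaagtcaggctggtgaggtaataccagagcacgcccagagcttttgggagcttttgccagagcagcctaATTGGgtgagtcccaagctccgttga
Plin4: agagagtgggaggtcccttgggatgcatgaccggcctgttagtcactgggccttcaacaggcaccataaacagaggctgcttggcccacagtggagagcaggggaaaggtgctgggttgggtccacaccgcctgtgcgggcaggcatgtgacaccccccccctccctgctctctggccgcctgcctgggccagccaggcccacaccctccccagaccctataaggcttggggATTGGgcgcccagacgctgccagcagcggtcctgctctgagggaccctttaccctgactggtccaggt
Plin2: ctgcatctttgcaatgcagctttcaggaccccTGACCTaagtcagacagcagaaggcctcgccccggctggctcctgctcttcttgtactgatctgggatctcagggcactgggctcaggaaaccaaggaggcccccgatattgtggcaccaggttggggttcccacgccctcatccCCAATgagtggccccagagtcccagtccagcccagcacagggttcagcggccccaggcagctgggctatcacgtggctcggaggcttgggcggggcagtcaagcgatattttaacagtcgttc

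Of the 10 genes, 8 had windows in the table used, 12 in all. The site for PPARγ with its partner is a direct repeat of AGGTCA with 1 base between, and neither it nor a looser form, with any base at the fourth position of each AGGTCA, was found on either strand in any of the 12; 0.381% of all 32851 windows hold the looser form. A single AGGTCA was present in 6 of the 12 windows, belonging to Cd36, Pparg, Plin2 and Plin5, against 16.3% of all windows. CCAAT was present in 7 of the 12, against 37.4% of all. In the windows shown, Cd36 and Plin2 hold AGGTCA and Mogat1 and Plin4 do not, and all 4 hold CCAAT. These matches describe the letters in the window only.

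The 5 POMCMfn2KO livers differed among themselves more than the 3 controls did. The SD was larger in POMCMfn2KO than in control arrays for 14 of the 16 probe sets, as for 80.04% of the 11986 genes tested; the median SD over those genes was 0.13 in POMCMfn2KO and 0.07 in control arrays. Mogat1 and Cidea, with every knockout array below background, give no order among these arrays. Over the brightest probe set of the other 8 genes, array 4 was the highest knockout array in 4 (Pparg, Cideb, Plin2 and Plin4) and array 1 in 3 (Cidec, Plin5 and Fabp4). Array 5 was the lowest in 4 (Cideb, Cidec, Plin5 and Fabp4). Cd36 was lowest in array 1, where Cidec and Plin5 were highest, though on 1450884_at Cd36 was lowest in array 3.

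Of the 15 lipolysis genes tested, 2 (Pnpla2 and Aadac) had array 1 apart from the other knockout arrays by more than 0.71 of the group's range, as had genes of other roles such as Agpat5, Ep300 and Aup1. The share over all tested genes was not computed, so this count is a description only. The genes given next were picked after their values were seen. Pnpla2, the adipose triglyceride lipase, read 10.02 in POMCMfn2KO array 1 and 8.92 to 9.23 in the other knockout arrays, against 8.98 to 9.13 in the controls. G0s2, an inhibitor of that lipase, read 11.59 in array 1 and 12.35 to 12.99 in the other knockout arrays, against 12.27 to 12.33 in the controls. Pdk4, a kinase that spares glucose during fasting, read 8.01 in array 1 and 9.42 to 9.97 in the other knockout arrays, against 8.45 to 8.52 in the controls. Lpin1, a phosphatidate phosphatase and coactivator, read 12.20 in array 1 and 7.26 in array 4, with 9.38 to 10.30 in the other knockout arrays, against 8.71 to 8.80 in the controls. Pancreatic acinar markers were high in arrays 2 and 3: their mean log2 level over 9 genes was 6.41 in each of arrays 1 and 4 and 6.20 in array 5, 10.73 in array 2 and 10.88 in array 3, against 6.17 to 6.22 in the controls. Without arrays 2 and 3 the members' differences were -0.95 for Pparg, -2.47 for Cd36, -0.55 for Cidec and -2.41 for Plin4.

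**Figure D3:**
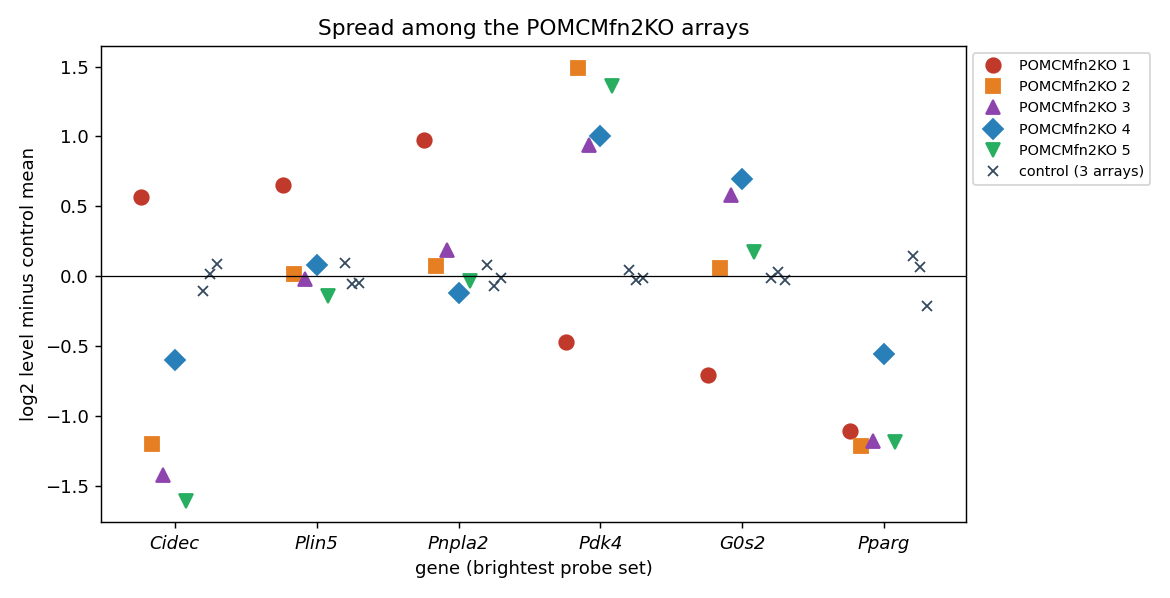
Log2 level minus the control mean for Cidec, Plin5, Pnpla2, Pdk4, G0s2 and Pparg, with each POMCMfn2KO array in its own colour and symbol (left of each group) and the 3 controls as crosses (right). Array 1 lies above all other arrays for Cidec, Plin5 and Pnpla2 and below all other arrays for Pdk4 and G0s2, and array 4 is the knockout array nearest to the controls for Pparg.

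Over the 8 arrays, the tested genes nearest to Pparg, by the root mean square difference of the log2 level relative to the control mean, were Tusc3 (0.12), Nagk (0.13), Tmie (0.14), Parp3 (0.15) and Lyplal1 (0.16). Since they were chosen over these same arrays, that each is highest in array 4 among the knockout arrays, as Pparg is, follows from the choice. The nearest to Cd36 were Pnldc1 (0.34), Dbp (0.37), Ildr2 (0.40), Wfdc2 (0.44) and Gstm3 (0.44). These lay farther off than the neighbours of Pparg did, but the measure is not scaled to the size of a gene's difference. Only 0.491% of all probe sets were at least 2-fold lower, so few genes could lie near Cd36. None of the 5 had its lowest level in array 1, as Cd36 did on 1423166_at. On 1450884_at Cd36 was lowest in array 3, as Ildr2, Wfdc2 and Gstm3 were.

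**Figure D4:**
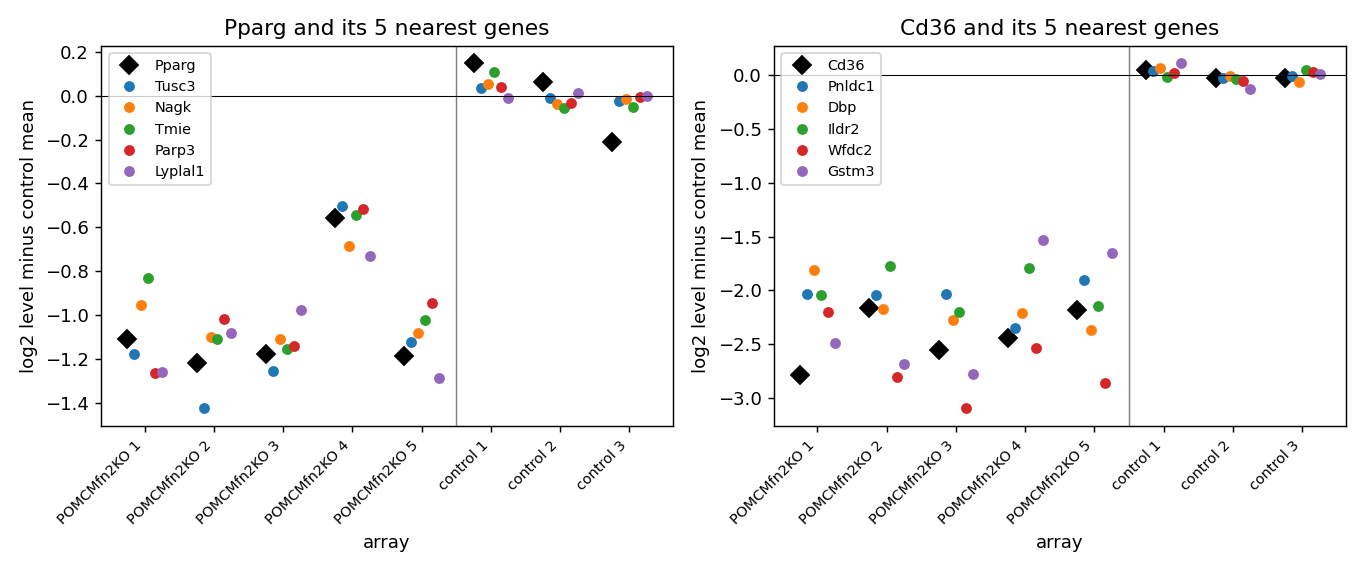
Log2 level minus the control mean in each array for Pparg (left panel, black diamonds) and Cd36 (right panel, black diamonds) with the 5 tested genes nearest to each (coloured points); the 5 POMCMfn2KO arrays are left of the grey line and the 3 controls right of it. In array 4, Pparg is at -0.56 and its neighbours lie between -0.73 and -0.50.

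Genes of the same pathway outside the 10 were tested with limma over all 11986 genes (threshold 0.05 after Benjamini-Hochberg adjustment), in which 7.02% of genes rose, 10.9% fell and the median difference was -0.02. Among other known targets of PPARγ the picture was mixed. Of 25 listed genes 17 were tested, of which 3 rose and 1 fell, with a median of 0.13. Angptl4, a secreted inhibitor of lipoprotein lipase, rose to 11.95 ± 0.08 in POMCMfn2KO against 11.16 ± 0.03 in control liver (0.78, limma adjusted p = 0.000189), Hilpda, a lipase inhibitor on droplets, rose by 0.41 and the gluconeogenic enzyme gene Pck1 by 0.36. Vldlr, a lipoprotein receptor, fell to 6.17 ± 0.51 in POMCMfn2KO against 7.30 ± 0.20 in control liver (-1.13, limma adjusted p = 0.0175), on a probe set that can bind other transcripts and with knockout arrays near background. Several of these genes are PPARα targets too. Vldlr lost its call without control 1 (limma adjusted p = 0.0818) or 2 (0.0718), Hilpda without control 2 (0.0581), and Pck1 without control 1 (0.0562) or 3 (0.0662). The list had 2 called genes without control 1 or 2, 7 without POMCMfn2KO 1, and 2 without POMCMfn2KO 2 and 3. Calls over all genes moved in the same directions, from 2152 to 821 and 820 without control 1 or 2. They numbered 2760 without POMCMfn2KO 1 and 640 without POMCMfn2KO 2 and 3.

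Among 22 partners and regulators of PPARγ, 2 rose and 1 fell, with a median of 0.14. Crebbp, an acetyltransferase coactivator, rose by 0.49 and Rxrb, a retinoid X receptor, by 0.28, while Cebpa, a factor that works with PPARγ in adipocytes, fell by 0.29. Other probe sets of Crebbp gave 0.02 and 0.06, and with the mean of its probe sets the call was lost (limma adjusted p = 0.185). Rxra, the main hepatic partner, differed by -0.21 (limma adjusted p = 0.151), and Ppara by 0.21 (0.350). Rxrb lost its call without any 1 of the controls (limma adjusted p = 0.0673 to 0.116) or POMCMfn2KO 2 (0.0582), and Cebpa without any 1 of the controls (0.0947 to 0.133) or POMCMfn2KO 3 (0.0793) or 5 (0.0507). The count was 1 without any 1 of the controls, 5 without POMCMfn2KO 1, 7 without POMCMfn2KO 4 and 1 without POMCMfn2KO 2 and 3. Over all genes the same omissions gave 820 to 863, 2760, 2749 and 640 calls in place of 2152. Srebf1, the lipogenic factor of the list of named genes, fell to 9.05 ± 0.21 in POMCMfn2KO against 10.56 ± 0.15 in control liver (limma adjusted p = 0.000182).

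Besides Cd36, 18 genes of fatty acid uptake and binding were tested; 1 rose and 3 fell, with a median of -0.10. Slc27a2, the main fatty acid transport protein of liver and kidney, rose by 0.22, and its relative Slc27a4 (-0.25), the acyl-CoA-binding protein gene Dbi (-0.34) and Vldlr fell. Fabp1, the liver's own fatty acid-binding protein, differed by -0.09 (limma adjusted p = 0.565). Fabp5, a relative of Fabp4, averaged 10.94 ± 1.09 in POMCMfn2KO and 9.78 ± 0.04 in control liver and did not pass (limma adjusted p = 0.159). Slc27a2 lost its call without any control (0.0828 to 0.108), POMCMfn2KO 2 (0.0582) or POMCMfn2KO 3 (0.0628), and Slc27a4 without any control (0.0535 to 0.0940). The count was 1 without control 1 or 2, 2 without control 3 and 1 without POMCMfn2KO 2 and 3. Over all genes these omissions gave 821, 820, 863 and 640 calls in place of 2152.

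In triglyceride synthesis outside Mogat1, 1 of 12 tested genes rose and 2 fell, with a median of -0.03. Gpat3, an acyltransferase of the first step, fell to 8.24 ± 0.18 in POMCMfn2KO against 8.83 ± 0.05 in control liver (-0.60, limma adjusted p = 0.00547), and Dgat2, which makes triglyceride from diacylglycerol, fell by 0.35. Lpin2, a phosphatidate phosphatase, rose to 11.51 ± 0.29 in POMCMfn2KO against 10.70 ± 0.02 in control liver (0.81, limma adjusted p = 0.00734). Mogat2, the relative of Mogat1, was dim and not tested. Dgat2 lost its call without any control (limma adjusted p = 0.0600 to 0.0880). Without POMCMfn2KO 2 and 3, 1 gene of the list was called, and 640 of all genes in place of 2152. Of 15 lipolysis genes only Hilpda passed, and none fell (with no adjustment, limma put 2 risers and 2 fallers below 0.05). Their median was 0.02. The lipolysis count was 0 without control 2 or without POMCMfn2KO 2 and 3 (with no adjustment, limma put 1 below 0.05 each time). It was 2 without POMCMfn2KO 4 or 5. Calls over all genes under these omissions numbered 820, 640, 2749 and 1955.

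Of 19 other genes of droplet coats and droplet formation, 5 fell and 1 rose, with a median of -0.03. Fitm1, an endoplasmic reticulum protein that promotes droplet formation in muscle and fat, read 7.78, 7.89, 8.30, 9.59 and 7.93 in POMCMfn2KO arrays and 10.58, 10.60 and 10.55 in control arrays. Every knockout array was below the controls, with array 4 the nearest to them as for Pparg. The means were 8.30 ± 0.75 in POMCMfn2KO and 10.58 ± 0.02 in control liver (-2.28, 4.85-fold, limma adjusted p = 0.00424), and the call was kept in each of the 16 alternative fits (limma adjusted p up to 0.0395). Its relative Fitm2 differed by 0.08 (limma adjusted p = 0.498). Bscl2, the gene of seipin, fell by 0.45, the sterol enzyme gene Nsdhl by 0.88, the ubiquitous perilipin gene Plin3 by 0.49 and Pcyt1a, which makes phosphatidylcholine for growing droplets, by 0.33, whereas Stx5a, a syntaxin, rose by 0.31.

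Several of these droplet calls were lost with fewer arrays, while the differences changed little. Without any 1 of the controls, the difference ranged from -0.90 to -0.87 for Nsdhl, -0.51 to -0.45 for Plin3, -0.34 to -0.32 for Pcyt1a and 0.27 to 0.33 for Stx5a, and 820 to 863 of all genes were called in place of 2152. Nsdhl (limma adjusted p = 0.0504 to 0.0561), Plin3 (0.0716 to 0.0918), Pcyt1a (0.131 to 0.152) and Stx5a (0.0702 to 0.0991) lost their calls without any 1 of the controls, Pcyt1a also without POMCMfn2KO 1 (0.0613), 2 (0.0809) or 3 (0.0844) and Stx5a without POMCMfn2KO 2 (0.0509). The count was 2 without any 1 of the controls and 1 without POMCMfn2KO 2 and 3, where 640 of all genes were called. Liver Mfn2 itself averaged 9.61 ± 0.24 in POMCMfn2KO and 9.88 ± 0.08 in control liver (-0.27, limma adjusted p = 0.169). It passed only without POMCMfn2KO 1 (0.0167), and with the mean of its probe sets the difference was -0.06 (0.642). Since the deletion is not in hepatocytes, liver Mfn2 checks no label. Of 9 hepatocyte markers 8 were tested, of which Cps1 rose (0.31) and none fell. With no adjustment, limma put 2 hepatocyte risers and 0 fallers below 0.05. Alb, the albumin gene, averaged 15.25 ± 0.01 in POMCMfn2KO and 15.26 ± 0.02 in control liver.

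**Figure D5:**
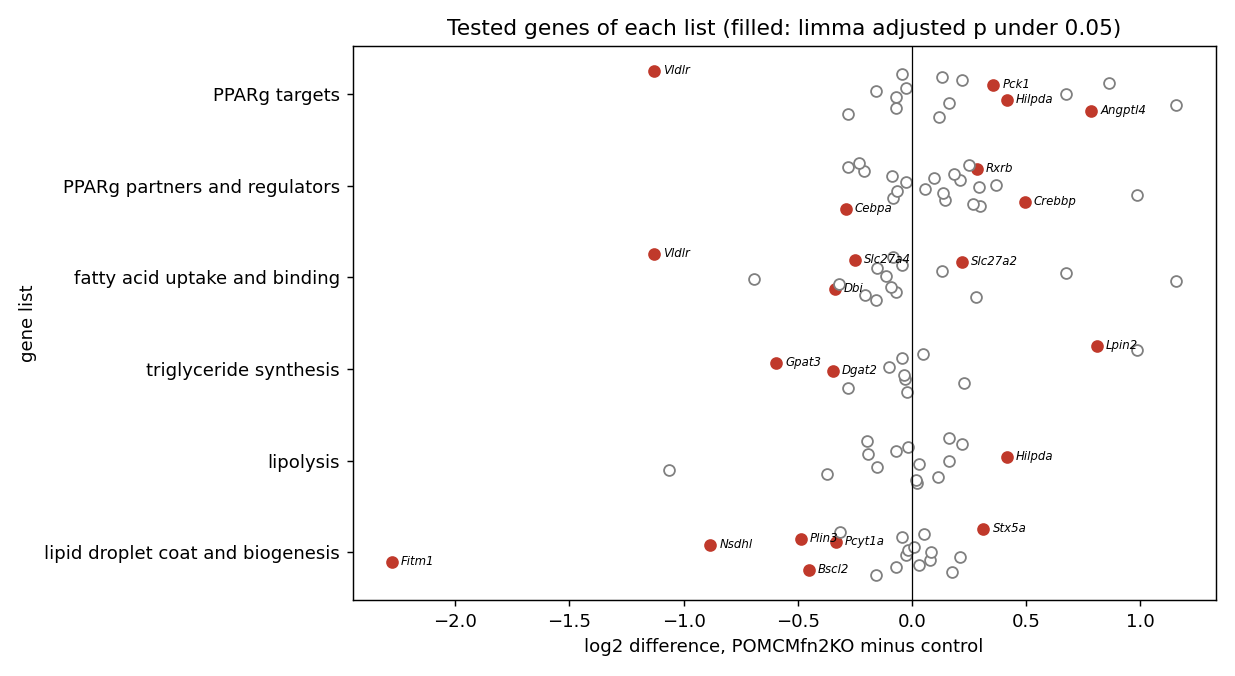
Log2 difference (POMCMfn2KO minus control, horizontal axis) of each tested gene in 6 lists of related genes (vertical axis; the offset within a list only separates points). Filled points passed limma at an adjusted p under 0.05 and carry their names; open points did not. Fitm1 at -2.28 is the lowest point, and most of the other genes lie near 0.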

How the data were processed

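Per the submitters' processing notes, the authors made the deposited log2 values with RMA (affy; its version is not given in the sources used here); RMA corrects background, equalises array distributions and summarises each probe set, which can compress differences of dim and very bright probe sets. Control probe sets (64) were left out. Probe sets took their gene from the platform annotation: 34945 had 1 symbol, 932 several and 9160 none. For tests the probe set with the highest mean per gene was kept, genes with a mean below 5.80 (the median of non-control probe sets) were left out, and the remaining 11986 genes were fitted with limma 3.58.1 in R 4.3.3, POMCMfn2KO minus control, 2-sided, Benjamini-Hochberg adjustment, threshold 0.05. The fit was tested on simulated data with normal noise, its SD per gene shared by both groups. In the real arrays the SD was larger in POMCMfn2KO for 80.04% of tested genes. The simulation therefore does not show how the calls hold under that spread. Figures used matplotlib 3.10.9 in Python 3.11.15.

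The members, gene lists and the choice to leave out arrays 2 and 3 were made with earlier results of these data known. Named list genes are those that passed (at most 6 per direction); Rxra, Ppara, Fabp1, Fabp5, Fitm2, Lpin1, Pnpla2, Pdk4, G0s2, Hsd17b13, Aadac, Agpat5, Ep300, Aup1 and Mogat2 were named after their values were seen. Alternatives changed the filter, probe set, scaling, variance model, replicate block and arrays. Further lists held markers of hepatocytes, adipocytes, macrophages, endothelium, stellate cells (0 of 8 tested genes passed limma; with no adjustment, 2 were higher and 1 lower at a p under 0.05) and pancreatic acini (0 of 9 passed; 0 at an unadjusted p under 0.05). Background for folds was the 95th percentile of receptor probe sets. Gene positions and promoter windows are RefSeq's, build GRCm38.p6.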

Additional observations from a re-analysis of the deposited data

Results flagged for a closer look

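In a group of 5 arrays, an array was marked when its gap to the nearest other exceeded 0.71 of the group's range (Dixon's 95% value), which chance alone gives in about 1 of 20 groups. Among the members, Pparg was marked for POMCMfn2KO array 4 (gap over range 0.836), and both Plin5 probe sets for array 1 (0.737 on 1424937_at and 0.719 on 1441915_s_at). Array 1 was also marked for Pnpla2 (0.719), Pdk4 (0.718) and Fabp1 (0.808), array 4 for Fitm1 (0.717) and Hsd17b13 (0.956), and array 5 for Crebbp (0.730). Hsd17b13, a droplet-bound enzyme gene, read 8.79 in array 4 and 13.13 to 13.33 in the other POMCMfn2KO arrays, against 12.32 to 12.43 in the controls. The difference of means was -0.03 on this probe set, its brightest, but -1.94 on another probe set of the gene. Whether array 4 also stood apart on that other probe set was not tested. Of the 87 tested genes of the 6 pathway lists, 14 had an array apart. It was array 1 in 8 of them, array 4 in 3 and array 5 in 3. How often this occurs over all 11986 tested genes was not computed, so no excess is read from these counts.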

How the results depend on the processing

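The members' differences were taken again under other scalings, the replicate block, the mean of probe sets and with each array left out. Of 195 such values, 194 stayed within 1 SD of the reported difference. The exception was Fabp4, at 0.30 with the mean of its probe sets, the dim ones included. Leaving out 1 array can hardly move a mean by the SD of those same arrays. This count was therefore nearly fixed in advance and does not measure robustness. The sign turned for Plin5, whose differences with 1 array left out ran between -0.036 and 0.24 (1424937_at) and between -0.015 and 0.18 (1441915_s_at), both negative without POMCMfn2KO replicate 1. Probe sets lower with no overlap numbered 7 to 8 and higher ones 2 to 3. Leaving out 1 array, the called genes of all tested numbered 820 to 2760, PPARγ targets 2 to 7, partners 1 to 7, uptake genes 1 to 5, triglyceride synthesis genes 2 to 4, lipolysis genes 0 to 2 and droplet genes 2 to 7; at 0 lipolysis genes, limma gave 1 at an unadjusted p under 0.05. Without POMCMfn2KO 2 and 3, 640 genes were called, with 2 PPARγ targets, 1 partner, 1 uptake gene, 1 triglyceride synthesis gene, 0 lipolysis genes (1 at an unadjusted p under 0.05) and 1 droplet gene. With the stricter filter 5 partners were called, and with no filter 5 triglyceride synthesis genes. Without POMCMfn2KO 2 and 3, Hilpda, Pck1, Rxrb, Cebpa, Slc27a2, Slc27a4, Dbi, Lpin2, Dgat2, Bscl2, Nsdhl, Plin3, Pcyt1a and Stx5a lost their calls (limma adjusted p = 0.0543 to 0.165).

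The samples share replicate numbers, but same-numbered arrays did not deviate together (correlations of deviations across genes of 0.04, 0.04 and -0.03 for numbers 1, 2 and 3), so the numbers were not taken to pair mice. With the replicate block 1891 genes were called in all and 3 among the lipolysis genes, and Rxrb, Cebpa, Slc27a2, Slc27a4, Stx5a and Plin3 lost their calls. Quantile scaling ended the call of Cebpa (limma adjusted p = 0.0587), and Pcyt1a lost its call with no filter (0.0578) and with the mean of probe sets (0.106). Signal over background limits the sizes for Mogat1, Cidea and the dimmer Fabp4 probe sets.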
